A study of Rattus norvegicus with 28 samples.

Results

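Gene counts of spinal cord were compared with those of brain in rats read as wild type. The comparison used 8 of the 28 samples of the series, 4 libraries of spinal cord and 4 of brain. They are the columns that carry a minus mark in a count table titled as lumbar spinal cord and in one of brain, joined on the gene identifier. Minus was read as WT and plus as mtCO3mut, the genotype in which an edit of the mitochondrial DNA of neurons leaves them short of cytochrome c oxidase. No label states this reading, so the libraries are called minus-marked and plus-marked. The series also holds 4 plus-marked libraries of each tissue, which serve here as a second set, and 6 early-stage spinal cord samples of each genotype, which were not used here. The labels give tissue and genotype only, with no strain, age or sex, and do not say whether samples of 1 group are separate animals. The p-values therefore reflect variation among these libraries, which may be technical.

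The lumbar spinal cord holds the motor neurons of the hind limbs, sensory relay neurons and a thick outer layer of myelinated tracts. Hox genes mark its position along the body axis. The forebrain holds most excitatory projection neurons of the cortex and hippocampus and expresses transcription factors that the cord lacks. Myelin, made by oligodendrocytes, takes up a larger part of the cord than of the brain as a whole. These facts are background: the tables give Ensembl identifiers without gene names, and 0 of the 30560 identifiers could be matched through the reference used here, in which 0 of 47357 genes carry an Ensembl identifier. The tissue labels could therefore not be checked against named markers, and none of 31 gene lists chosen for these tissues, with 540 entries, was measured. The results below are given by identifier, by abundance and by library.

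Total counts were 39952615 to 47597097 in the 4 spinal cord and 33105800 to 62851529 in the 4 brain libraries. Libraries are numbered 1 to 4 in each tissue, and the same number stands for the same sample number in the column names of both tables. The names also carry a lane-like code, L4, L12, L24 and L3 in spinal cord libraries 1 to 4, and L3, L3, L1 and L1 in brain libraries 1 to 4. Only L3 occurs in both tissues. Tissue and table are the same division of these libraries, so a difference between the tissues and a difference in how the tables were made cannot be told apart. In bulk tissue, fewer cells of a type and less RNA per cell cannot be told apart either.

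The identifiers given as markers for this comparison were a pair of very abundant genes and a gene that was abundant in brain only. The sources used here do not say which genes they are. Levels below are in CPM, the count of a gene relative to the total of its library, scaled between libraries by the trimmed mean of M values (TMM). ENSRNOG00000002419 was the most abundant gene of spinal cord, at 13700, 10670, 13620 and 10720 CPM in libraries 1 to 4. In brain it had 6076, 5720, 5076 and 6481 CPM. Every spinal cord library lay above every brain library. The means were 12180 ± 1710 and 5838 ± 596 CPM (SD, n = 4). On the log2 scale spinal cord exceeded brain by 1.06 with an SE of 0.12 (edgeR adjusted p = 2.51e-06). A change past 2-fold was not shown (edgeR adjusted p = 0.377 against that limit).

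ENSRNOG00000016516 had 11350, 10060, 11090 and 8858 CPM in spinal cord and 8290, 8279, 7689 and 9092 CPM in brain. The tissues overlapped, since spinal cord library 4 lay below brain library 4. Its log2 fold change, 0.31 with an SE of 0.11 (edgeR adjusted p = 0.0192), was the smallest of the genes named here. Its call rested on single libraries and on the scaling. The adjusted p was 0.0682 and 0.0588 without spinal cord library 1 or 3, 0.0919, 0.0546 and 0.0574 without brain library 1, 2 or 3, and 0.0575 with upper-quartile scaling. Within code L3, with 1 spinal cord and 2 brain libraries, the log2 fold change was 0.09 (edgeR adjusted p = 0.607).

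ENSRNOG00000020650 showed the opposite distribution, with 525.1, 657.1, 804 and 667.6 CPM in brain. In spinal cord it had 2.32, 4.19, 1.25 and 22.8 CPM, from 108, 232, 62 and 1026 counts. The tissues did not overlap, but spinal cord library 4 held several times the level of the other spinal cord libraries. Its log2 fold change was -6.45 with an SE of 1.06 (edgeR adjusted p = 0.00147). It was -7.99 without spinal cord library 4 (edgeR adjusted p = 8.13e-07) and -4.70 within code L3, where library 4 is the only spinal cord library. With the sample number as a block it was -7.19 (edgeR adjusted p = 0.0066).

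**Figure D1:**
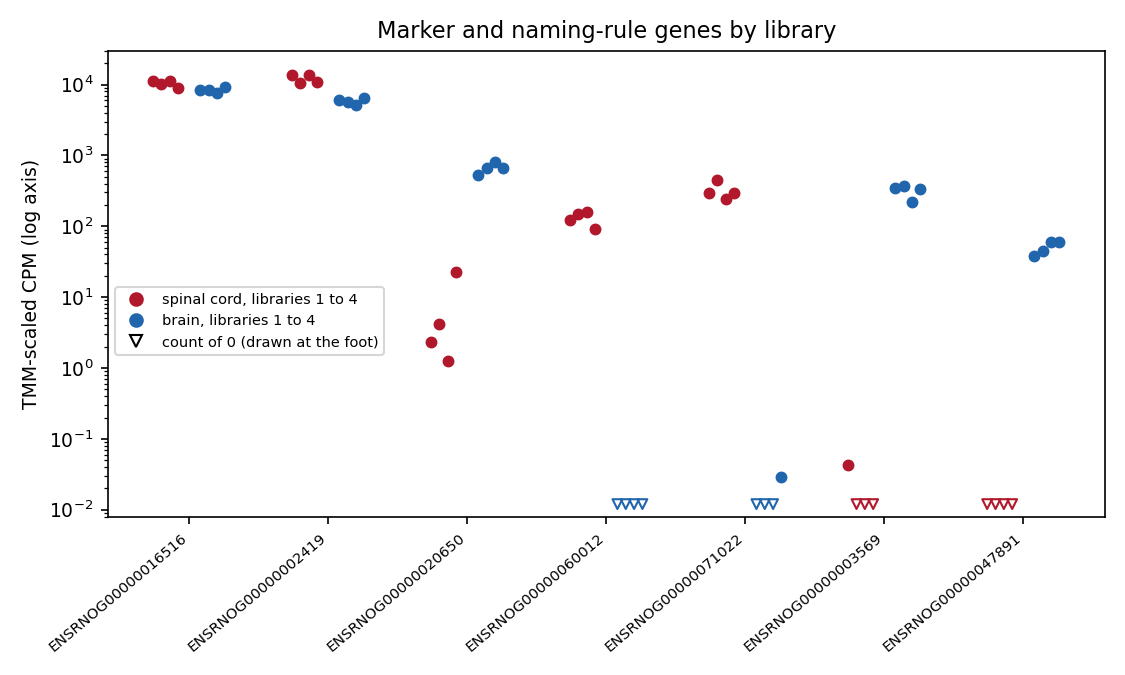
TMM-scaled CPM on a log axis of the 3 marker genes and of the first 2 genes in each direction under the naming rule, with 1 point per library and counts of 0 drawn as open triangles at the foot. ENSRNOG00000016516 overlaps between tissues, and the last 4 genes are at or near 0 in every library of 1 tissue.

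Across all genes, most of those tested differed between the tissues. A quasi-likelihood F test of the counts in edgeR, with Benjamini-Hochberg adjustment and a threshold of 0.05, called 12213 of 16966 genes (72.0%). Of these, 6268 (36.9% of those tested) were higher and 5945 (35.0%) lower in spinal cord. The near-even split turned with the scaling, to 5969 higher and 6291 lower with upper-quartile scaling. The tissues did not overlap in CPM for 11356 genes (66.9%), of which 11109 were called. The median log2 fold change over all tested genes was 0.03.

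Small differences made up much of this count. Of the 12029 called genes with more than 3 counts in each tissue, 5823 (48.4%) differed by less than 2-fold, and the median absolute log2 fold change was 1.03. At 4-fold or more, 1370 genes were higher and 944 lower in spinal cord. A test against a 2-fold limit called 2535 genes higher (14.9%) and 2013 lower (11.9%) in spinal cord. This excess of higher genes was also seen with upper-quartile scaling, at 2418 and 2169. Within code L3 the numbers were 2269 and 1725, the lone spinal cord library being taken to vary like the brain ones.

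Among the 4753 genes not called, 383 had an unadjusted p under 0.05. For 3214 of them the 95% interval of the fold change, from its standard error with 6 degrees of freedom, lay within 2-fold in both directions. For the others these libraries do not limit the difference that closely.

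**Figure D2:**
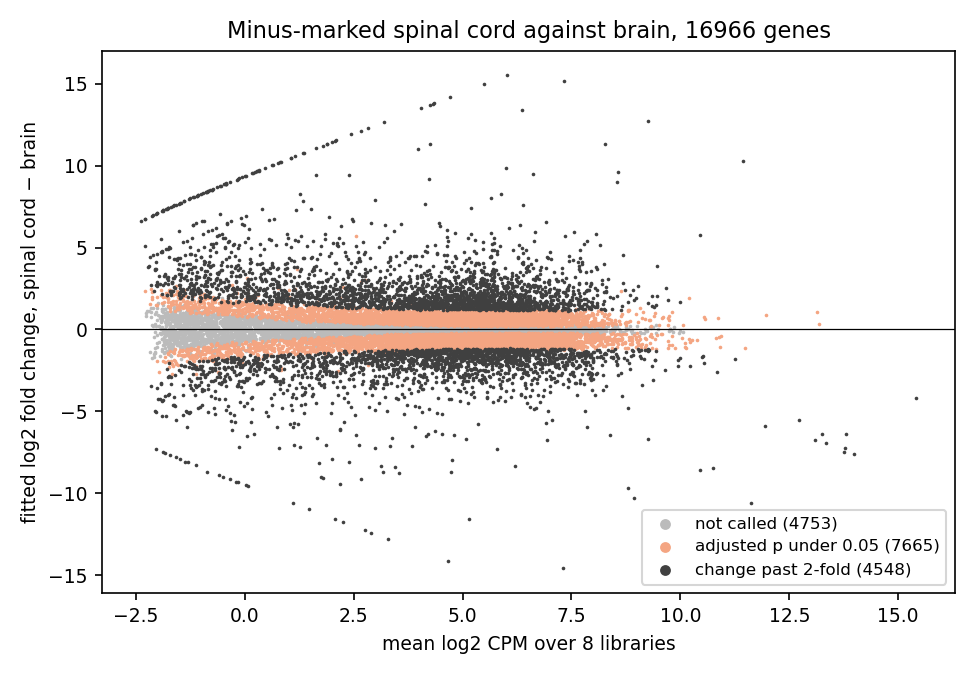
Fitted log2 fold change of spinal cord minus brain against mean log2 CPM over the 8 minus-marked libraries, 1 point per tested gene, with 4548 genes past the 2-fold limit in dark grey. The straight rows of points at the outer left are genes with 0 counts in 1 tissue, whose fitted values are no measure of size.

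The called share rose with abundance, and the share past 2-fold was close to even. The tested genes were divided by mean CPM into 4 groups of near-equal number. In the lowest group (0.192 to 3.99 CPM) 55.1% were called, in the next 73.6%, then 79.0%, and 80.3% in the highest (56.2 to 43400 CPM). The median standard error of the log2 fold change fell over the same groups from 0.385 to 0.104. Past the 2-fold limit the shares were 27.9%, 26.4%, 25.5% and 27.4%. The test has less power where the standard error is large, so these shares do not compare how common large differences were. Higher genes led in the lowest group, with 734 against 451 lower past 2-fold, and the sides were close in the highest group, with 592 against 570.

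The count filter can let in a gene through 1 tissue alone. Of the tested genes, 15010 passed the same limit in each of the 8 libraries and 1956 did not. Among those 15010, 10969 (73.1%) were called, 5439 higher and 5530 lower in spinal cord. Past the 2-fold limit there were 1946 higher and 1715 lower genes. For 10768 of the 10969, spinal cord differed from brain in the same direction in all 4 pairs of libraries with the same number. These genes were called on the same libraries, so this agreement largely follows from the choice and is a description.

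A small number of genes had no or almost no counts in 1 of the tissues while clearly present in the other. A gene was counted as restricted where every library of a tissue held at least 10 CPM and the libraries of the other held at most 3 counts together. There were 13 such genes of 9998 at that level in spinal cord (0.13%), and 5 of 9920 in brain (0.0504%). The numbers depend on the level asked for, with 58 and 16 genes at 1 CPM and 2 and 1 at 100 CPM. Of the 13 and 5 genes at 10 CPM, 9 and 4 had no count at all in the other tissue. The next genes outside the limit had over 6 counts for spinal cord and 4 for brain. Restricted genes had mean levels of 13.8 to 322 CPM (median 39.5) in spinal cord and 13.6 to 316 CPM (median 19.5) in brain. A count of 0 in deep libraries bounds the level and does not show that a gene is silent.

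The next 4 genes were picked from these same libraries for their fold change, adjusted p and lack of overlap. Each passed the count filter only through the tissue where it was high. Their p-values largely follow from that choice and are a description. ENSRNOG00000060012 came first by fitted fold change among genes with at least 10 CPM in the higher tissue. It had 124.2, 146.9, 158.9 and 90.4 CPM in spinal cord libraries 1 to 4 and 0 counts in all 4 brain libraries. Against a floor of 3 counts over the brain group, 0.0182 CPM, it was at least 7210-fold higher in spinal cord (edgeR adjusted p = 1.45e-09). ENSRNOG00000071022 had 294.9, 455, 240.9 and 296.3 CPM in spinal cord and 1 count in brain, in library 4. Its ratio was 53700, with a 95% interval from counting error alone of 9640 to 2120000 (edgeR adjusted p = 1.15e-11).

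In the other direction, ENSRNOG00000003569 had 346.3, 364.5, 217.5 and 336.3 CPM in brain libraries 1 to 4 and 2 counts in spinal cord, both in library 1. Brain exceeded spinal cord by a ratio of 29800, with a 95% counting interval of 8250 to 246000 (edgeR adjusted p = 5.36e-12). ENSRNOG00000047891 had 38.4, 44.8, 59.7 and 59.8 CPM in brain and 0 counts in spinal cord. Against a floor of 3 counts over the spinal cord group, 0.0152 CPM, it was at least 3420-fold lower there (edgeR adjusted p = 3.3e-10). All 4 genes kept direction and call under each alternative in which they were tested, which also largely follows from how they were picked. The part of library making or counting in differences of this size was not tested.

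Brain counts were far more concentrated in a few genes than spinal cord counts. The 10 most abundant genes of brain held 19.11%, 17.97%, 18.4% and 35.72% of all counts in brain libraries 1 to 4. The same genes held 1.99%, 1.87%, 1.97% and 1.80% in spinal cord. The 10 most abundant genes of spinal cord held 5.11% to 5.96% there. The share held by each tissue's own 10 genes was 22.8% ± 8.63 in brain and 5.58% ± 0.391 in spinal cord (SD, n = 4 libraries, exact two-sided permutation p = 0.0286, the smallest that 4 against 4 allow, adjusted p = 0.0381 over 4 library measures). The 100 most abundant genes of each tissue gave 34.15% ± 8.35 and 14.68% ± 0.548, with the same p. The 100 include the 10, so the results are not separate. In brain both shares rest largely on 9 genes, described below, which held 17.2% to 35.1% of the counts of a brain library. Whether brain counts are more concentrated apart from them was not tested.

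**Figure D3:**
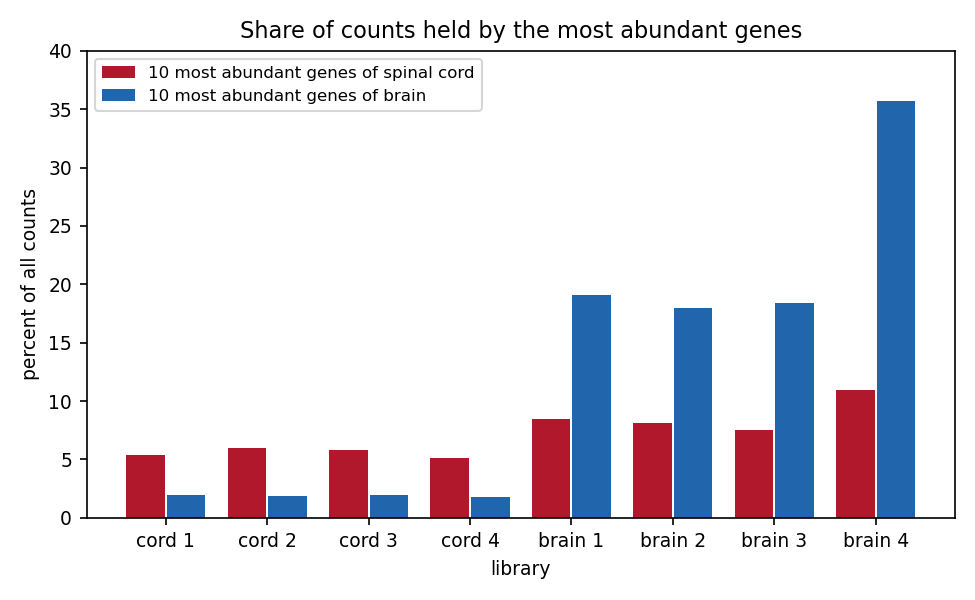
Percent of all counts held in each minus-marked library by the 10 most abundant genes of spinal cord and by the 10 most abundant genes of brain, 2 of which are the same. The brain genes hold 17.97% to 35.72% in brain libraries and under 2% in every spinal cord library.

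Of the 10 most abundant brain genes, 9 were lower in spinal cord, each without overlap, by 18.3- to 197-fold (log2 fold change -4.19 to -7.62, edgeR adjusted p at most 2.99e-05). Together these 9 genes took 17.2% to 35.1% of the counts of a brain library and 0.653% to 0.795% of a spinal cord library. They moved together in brain library 4, where each held 1.55 to 2.69 times its mean share in brain libraries 1 to 3. The first of them took 5.67% to 9.39% of brain counts and 0.479% to 0.562% of spinal cord counts, and was still the fifth most abundant gene there. In the plus-marked libraries the 9 genes held 21.4% to 25.4% in brain and 0.624% to 0.854% in spinal cord. Spinal cord library 4 and brain libraries 1 and 2, which share code L3, fell on the 2 sides of this gap like the rest. What these genes are could not be read from the tables, and the part of library making or counting in this gap was not tested.

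The remaining gene of the brain list was ENSRNOG00000016516. Of the 10 most abundant spinal cord genes, 9 were higher there, with log2 fold changes of 0.31 to 10.3. One of them took 0.446% to 0.852% of spinal cord counts and at most 0.000573% of brain counts. The tissues shared 2 of their 10, 43 of their 100 and 553 of their 1000 most abundant genes. Of the 100 most abundant brain genes 82 were lower in spinal cord, and of the 100 most abundant spinal cord genes 58 were higher there, while 26 were lower than in brain. Choosing genes by their level in 1 tissue favours that direction, and over all tested genes 36.9% were higher and 35.0% lower in spinal cord.

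More genes were detected in spinal cord than in brain in the minus-marked set, which was not repeated in the plus-marked set. Genes with at least 1 count numbered 19914 to 20084 in the spinal cord libraries and 18725 to 19403 in brain, with no overlap (difference in means 951.2, exact two-sided permutation p = 0.0286, adjusted p = 0.0381). Total counts overlapped (exact two-sided permutation p = 0.543). The deepest brain library, with 62851529 counts, had fewer detected genes than the shallowest spinal cord library, with 39952615. A few genes took a large share of brain counts, so totals do not compare the depth left for other genes. The part of depth in this difference was not tested. In the plus-marked libraries the tissues overlapped, at 19032 to 20213 genes in spinal cord and 19465 to 19870 in brain. Total counts there were 21008418 to 40359757 in spinal cord and 64782608 to 82776333 in brain.

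The same contrast was then made in the plus-marked libraries, which share no library with the minus-marked ones. There 12981 of 17362 genes (74.8%) were called, 6436 higher and 6545 lower in spinal cord, and 5489 (31.6%) passed the 2-fold limit. Of 16800 genes tested in both sets, 10861 were called in both with the same direction. This is 89.6% of the minus-marked and 85.7% of the plus-marked calls. In opposite directions 28 genes were called, and their absolute log2 fold changes in the minus-marked set had a median of 0.36 and a maximum of 1.25. Past the 2-fold limit 4006 genes were shared in direction, 89.2% of the minus-marked and 76.0% of the plus-marked list, and 0 were opposed. The fold was larger in the minus-marked set for 1241 of these 4006 genes, and so more often larger in the plus-marked set. Over the 16605 genes with more than 3 counts in each tissue and mark, the fold changes of the sets correlated across genes with Pearson's r at 0.95 and Spearman's rho at 0.943. Genes are not independent replicates. Both sets come from the same pair of tables, so a difference between the tables would be in both.

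**Figure D4:**
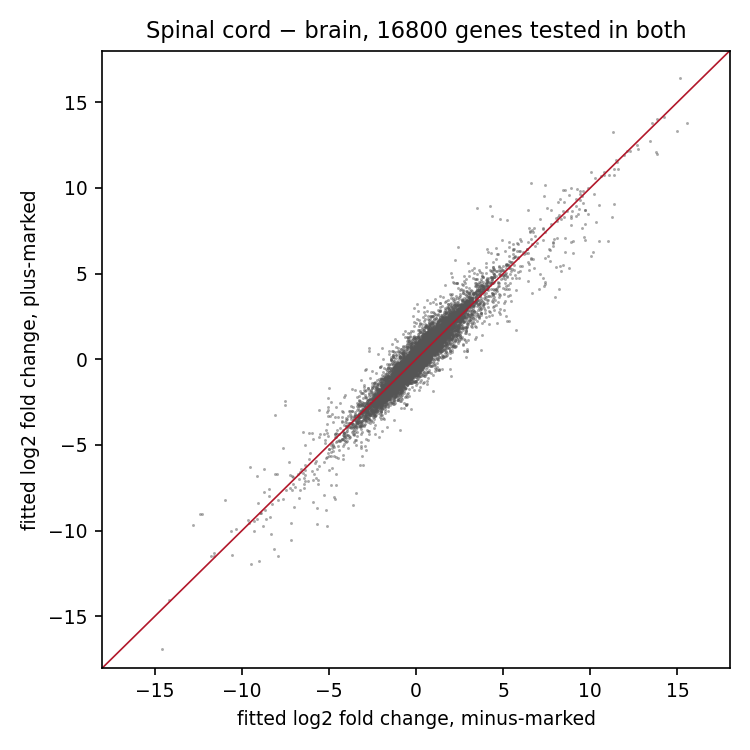
Fitted log2 fold change of spinal cord minus brain in the plus-marked libraries against that in the minus-marked libraries, 1 point per gene tested in both, with the line of equal values. Of the 4006 genes past 2-fold in both sets, 1241 have the larger fold in the minus-marked set.

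The markers lay on the same sides in the plus-marked set. ENSRNOG00000002419 had 12450 ± 2790 and 5734 ± 407 CPM in plus-marked spinal cord and brain (SD, n = 4), which differed by 1.12 on the log2 scale with an SE of 0.16 (edgeR adjusted p = 3.02e-05). ENSRNOG00000020650 had 3.31 ± 2.54 and 609 ± 59.4 CPM (SD, n = 4), with a log2 fold change of -7.49 and an SE of 0.58 (edgeR adjusted p = 4.93e-06). ENSRNOG00000016516 did not pass the threshold there, where its log2 fold change was 0.22 with an SE of 0.15 (edgeR adjusted p = 0.193). The difference between the marks in the tissue effect did not pass the threshold for any of the 3, with an interaction of -0.09 (SE 0.21), 1.00 (SE 1.04) and 0.06 (SE 0.19) on the log2 scale and edgeR adjusted p of 0.854, 0.647 and 0.906.

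Lists set on the plus-marked libraries were then measured in the minus-marked ones. Genes past the 2-fold limit, at least 16-fold apart and with a mean of at least 10 CPM in the higher plus-marked tissue, numbered 173 for spinal cord and 104 for brain. In the minus-marked set all 173 and all 104 were tested and passed the 2-fold limit in the same direction, with median log2 fold changes of 4.63 and -5.00. The background in that direction, over all tested genes, was 14.9% and 11.9%. It is not matched to the lists in fold or abundance, so the excess over it is not read as a test. The 173 spinal cord genes summed to 30510, 33740, 26120 and 35220 CPM in spinal cord libraries 1 to 4 and to 857.6 to 951.1 CPM in brain. The 104 brain genes summed to 214000 to 219400 CPM in brain libraries 1 to 3, to 552400 CPM in brain library 4, and to 5895 to 7592 CPM in spinal cord. A few very abundant genes carry the high sum of brain library 4, since the median level over the 104 genes was 56.0, 69.6, 61.2 and 61.0 CPM in brain libraries 1 to 4. In spinal cord that median was 2.06, 2.02, 1.51 and 1.97 CPM. Spinal cord library 4 had the highest sum of both lists among the spinal cord libraries, and held the highest value for 40 of the 104 brain genes and for 64 of the 173 spinal cord genes.

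Within a tissue the libraries were close. The common biological coefficient of variation was 15.6% in spinal cord and 14.9% in brain, and the median SD of log2 CPM was 0.165 and 0.176 over the 15010 genes. The first principal component of log2 CPM separated the tissues and held 86.2% of the variance. The next held 3.29% and cut across the tissues: spinal cord library 4 and brain library 4 lay at 31.09 and 29.03, spinal cord library 2 and brain library 2 at -16.4 and -26.3. The libraries numbered 3 lay further apart, at -18.1 in spinal cord and -0.97 in brain.

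Libraries of the same number deviated together from their tissue means. The Pearson r of these deviations over 16966 genes was 0.131, 0.23, 0.144 and 0.158 for numbers 1 to 4. For the 12 combinations of different numbers it was at most -0.000254 and as low as -0.155. Each minus-marked spinal cord library was thus most like the brain library of its own number. Deviations from a tissue mean cancel over the libraries of that tissue, so a positive same-number value itself lowers the others. The negative values are therefore not separate evidence. In the plus-marked set the same-number values were 0.173, -0.06, 0.125 and 0.0482, and library 2 was not most like the brain library of its own number.

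**Figure D5:**
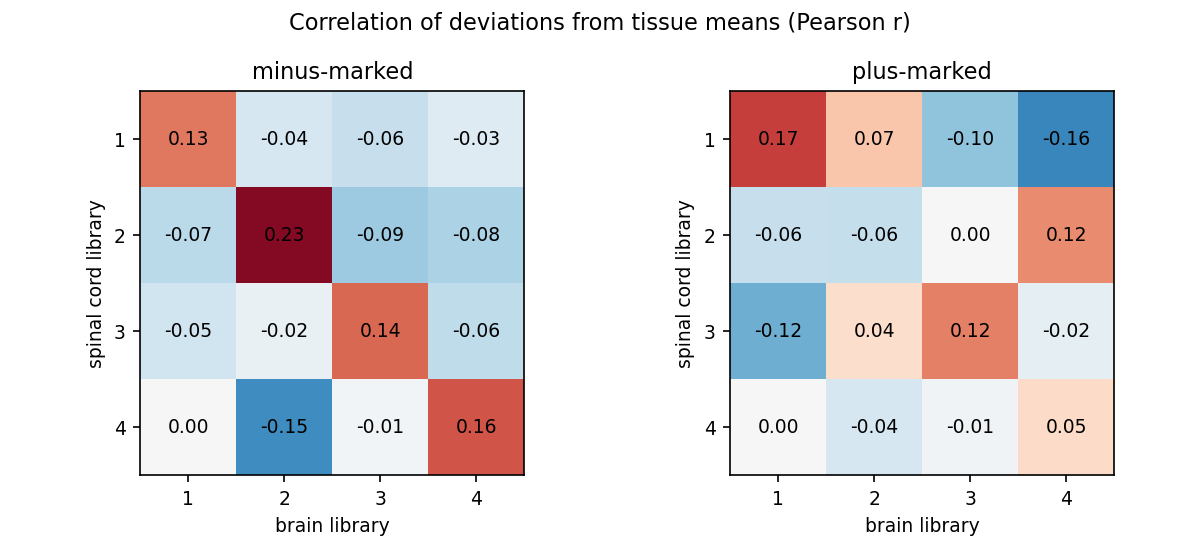
Pearson r across genes between each spinal cord library's and each brain library's deviation from its tissue mean, in the minus-marked and plus-marked sets. In the minus-marked set the 4 same-number cells on the diagonal are positive, at 0.131 to 0.23, and the others are not. Subtracting the tissue mean itself lowers the other cells where the same-number cell is positive.

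Genes that set 1 library apart showed the same pattern. Genes at least 2-fold above every other library of the tissue numbered 5, 14, 21 and 51 in spinal cord libraries 1 to 4 and 11, 10, 7 and 50 in brain. In both tissues the library numbered 4 held the most. Between libraries of the same number 10 of these genes were shared, 6 of them between the libraries numbered 4 (11.8% of the spinal cord and 12% of the brain list). Between libraries of different number 0 were shared over 12 combinations. Genes at least 2-fold below every other library gave 6 shared over the 4 same-number combinations and 3 over the 12 others. These genes were picked from the same libraries, and the counts are a description. Of the 51 genes that were high in spinal cord library 4, 23 were higher in spinal cord, 7 were lower and 21 were not called between the tissues. Over all 15010 genes 5439 were higher and 5530 lower, and a high value in 1 spinal cord library itself raises the spinal cord mean, so nothing is read from this division.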

How the data were processed

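Per the submitters' processing notes, reads were trimmed with cutadapt and counted with featureCounts on rat build mRatBN7.2, and DESeq2 was used; the aligner, annotation release, strand setting and versions are not stated there. Per the labels' protocols, libraries were made from total RNA after ribosomal RNA depletion, with strands marked by dUTP. Each deposited table, made by the authors, lists raw gene counts without normalization. Reads of near-identical or overlapping genes may have been assigned in ways the counts do not show. The 12 columns of early-stage cord could not be tied to a genotype and were not used.

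Counts were fitted with edgeR 4.0.16 (R 4.3.3, limma 3.58.1): genes kept by filterByExpr (minimum count 10), TMM scaling, robust quasi-likelihood F test on tissue alone, two-sided, Benjamini-Hochberg adjustment over all genes tested, threshold 0.05. The 2-fold limit used glmTreat. Minus- and plus-marked sets were fitted separately, and their difference as an interaction over all libraries. SE came from the F statistic. Log2 CPM used a prior count of 2. DESeq2 1.42.0 was an alternative. The minus-marked fits were run on simulated counts in which few genes differed between the tissues. Most genes differed in the real data, so that run does not show the error rates here.

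The main fit did not use pairs, so its errors and p-values are unpaired, and a block by number was an alternative. The numbers in the column names were read as pairing the minus-marked libraries. This reading rests on the correlations of same-number deviations in these same libraries, which were above 0.1 for each of the 4 pairs. In the plus-marked set these values were 0.173, -0.06, 0.125 and 0.0482. What the libraries of a pair share was not tested. No label states the pairing. Adding it as a block changed no call of a named gene.

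Groups, gene lists and tests were chosen with earlier results of these data known. The naming rule took the 3 markers and, since no identifier had a name, the first 2 genes in each direction by fitted fold change with an adjusted p under 0.05, no overlap and at least 10 CPM in the higher tissue. Gene lists by symbol and sequences could not be matched. Intervals and floors cover counting error only.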

Additional observations from a re-analysis of the deposited data

Results flagged for a closer look

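In groups of 4 libraries, values far from the other 3 were looked for in 22 combinations of tissue and measure. Among these, 6 stood out. Chance gives about 1 in 20 for independent measures with spread in every group, which does not apply to all of these: 2 are single libraries with a count where the others have 0, and the shares of the 10 and of the 100 most abundant genes overlap.

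ENSRNOG00000020650 had 22.75 CPM in spinal cord library 4, against 1.25 to 4.19 CPM in the other 3. This library carries the lane-like code L3 of brain libraries 1 and 2. The part of that in this level was not tested. Plus-marked spinal cord libraries, none of which carries L3, had 0.921 to 6.16 CPM. The lowest of these values was in library 2, which shares code L1 with plus-marked brain library 4. Minus-marked spinal cord library 4 held the highest spinal cord value for 40 of the 104 listed brain genes. It had 0 counts of the brain genes ENSRNOG00000003569 and ENSRNOG00000047891.

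In brain library 4 the 10 most abundant brain genes held 35.72% of the counts, against 17.97% to 19.11% in the others, and the 100 most abundant held 46.67%, against 29.74% to 30.3%. Without it 12053 genes differed between the tissues instead of 12213.

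Genes with a count numbered 20084 in spinal cord library 2, the deepest of the 4, against 19914 to 19926. ENSRNOG00000003569 had 0.0429 CPM in spinal cord library 1, from 2 counts, where the others had 0. ENSRNOG00000071022 had 0.0287 CPM in brain library 4, from 1 count, where the others had 0.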

How the results depend on the processing

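The minus-marked count of 12213 genes and the count past 2-fold of 4548 stayed within 1.5 times under every alternative run. They were 11713 to 12053 and 4363 to 4568 with 1 library left out, 12518 and 4678 with the replicate block, and 10147 and 3994 within code L3, where 80 of 12197 called genes changed sign, none of them called in the opposite direction. DESeq2 called 12918. The plus-marked count of 12981 was 12376 to 13238 with 1 library left out and 12834 with the replicate block, whose numbers are not shown to pair those libraries. In the minus-marked set the block changed no call among the named genes. The restricted genes, 13 in spinal cord and 5 in brain, were 13 to 14 and 5 to 6 with 1 library left out, 58 and 16 at a threshold of 1 CPM, and 2 and 1 at 100 CPM, a change that the threshold itself makes. Of the named genes, ENSRNOG00000016516 missed the threshold under 7 of 18 alternatives, with a log2 fold change between 0.0936 and 0.381. The within-L3 fit, the restriction to genes above the filter in every library and the alternatives for restricted genes were chosen after seeing the data. Depth limits the least abundant genes most, and with no gene names no pathway was tested.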
